A study of Mus musculus with 3 samples.

Results

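Immediate early genes are the transcripts that a cell switches on within minutes of a stimulus, without the need for new protein synthesis. The 10 genes described here are Egr1, Egr2, Fos, Fosb, Jun, Junb, Ier2, Dusp1, Dusp2 and Arc. They were taken by gene name from the array. The set was chosen by log2 ratios in these same samples, in that Egr1 and Dusp2 were high in all fractions and Arc in the top fraction, and the others belong to the same class. They make up 12 of its 41174 probes and 10 of its 27745 gene names. The ratios are therefore given as a description, with no test.

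Cultured lymph node stromal cells (LNSCs) from BALB/c mice received either an siRNA against Eif4g3 or a control siRNA, and carried no other stated alteration. Eif4g3 encodes eIF4GII, a scaffold of the complex that recruits ribosomes to capped mRNAs. Each siRNA was given at 400 pmol with Lipofectamine 2000, the medium was replaced after 24 h and the cells were collected at 48 h. Cells pooled from 7 plates per siRNA were lysed and separated on a 10% to 60% sucrose gradient. The gradient was divided into top RNA, light polysomes (mRNAs with few ribosomes) and heavy polysomes (mRNAs with many ribosomes). Each fraction was hybridised to 1 array of 2 colours that carried the Eif4g3 siRNA sample in Cy5 and the control siRNA sample in Cy3. With no dye swap, a dye effect of a probe and an effect of the siRNA cannot be told apart. With 1 array per fraction, array and fraction cannot be told apart either, and no p-value was computed. The pool of 7 plates per siRNA is 1 sample, so the spread between cultures was not measured. In such bulk RNA, fewer cells that carry a transcript and less of it per cell cannot be told apart.

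Immediate early mRNAs are induced through signalling kinases such as ERK, p38 and JNK, which act on transcription factors already present at the promoters. Serum response factor binds CArG boxes there, and CREB and its relatives bind cAMP response elements. The mRNAs of many of these genes hold AU-rich elements and are short-lived. Their proteins include transcription factors (the Egr, Fos and Jun families), phosphatases that switch the kinases off again (Dusp1 and Dusp2) and effectors such as Arc. Serum given to resting cultured fibroblasts is a classic inducer.

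The arrays set the precision of what follows. A log2 ratio is Eif4g3 siRNA over control siRNA after background correction and loess within the array, and each signal quoted is the normalized signal of that probe, which cannot be set against another probe or another fraction. The error after ±, unless named as an SD of spots, is the scanner software's error of its own log ratio. It covers the spot and not a repeat of the experiment, and was not rescaled to the ratio printed beside it. For a gene with more than 1 probe, and for a difference between fractions, the errors were combined as if independent. Disagreement between the probes of a gene is not part of it. Probes well above background in both channels numbered 14338 (34.8%) for top RNA, 20658 (50.2%) for light and 21245 (51.6%) for heavy polysomes, and no spot was saturated. The median SD of the log2 ratio between repeated spots of a probe was 0.06, 0.06 and 0.09 for the top, light and heavy fractions, and between different probes of a gene it was 0.11, 0.16 and 0.15. Before normalization the channels were unequal, with a median log2 ratio of -0.03 for top RNA, 1.17 for light and -1.52 for heavy polysomes. The siRNA target Eif4g3 had log2 ratios of -0.34 and -0.52 with its 2 probes in the top fraction, -0.99 and -1.13 in light and -1.67 and -1.87 in the heavy polysomes.

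Markers of the labelled cells and of others were read on the same arrays. All 12 markers of fibroblastic stroma were detected with both siRNAs in every fraction, with a median log2 ratio of -0.12 in top RNA, 0.03 in light and -0.43 in heavy polysomes, and 1, 7 and 4 above 0. Over all measured genes, 50.4%, 52.6% and 48.3% were above 0 in the top, light and heavy fractions. Vim was past 2-fold in top RNA (1.05) and light polysomes (1.15) and was the highest in heavy polysomes (0.37), where the adhesion molecule gene Vcam1 was the lowest (-0.68). The call of Vim depended on the setting. When dim probes were kept, Vim was past 2-fold in no fraction. With the scanner software's own ratio it was past 2-fold in light polysomes only (1.06). From 4 genes of fibroblastic reticular cells, 3 were detected with Eif4g3 siRNA in each fraction, against 2, 2 and 3 with control siRNA. Cxcl13 was detected in no fraction. Of 7 endothelial markers, 0, 4 and 3 were detected with Eif4g3 siRNA in the top, light and heavy fractions, against 0, 2 and 5 with control siRNA. For 6 epithelial markers the counts were 2, 3 and 1, against 0, 1 and 3 with control siRNA. Only Krt18 of these was measured with both, at 0.48 in light and 0.57 in heavy polysomes. With the scanner software's own ratio Krt18 was at 1.61 and 1.08. Of 7 smooth muscle and pericyte markers, 5 were detected with Eif4g3 siRNA in each fraction, against 4, 6 and 6 with control siRNA, and those measured with both had medians of 0.22, 0.39 and 0.15. Cnn1, a calponin, was the highest of that list, at 0.86, 0.64 and 0.52. Pecam1 of the endothelial list and Ptprc, Cd8a, Cd79a, Itgam and Itgax of the leukocyte list were not well above background with Eif4g3 siRNA or control siRNA in any fraction. The part of these markers in the results below was not tested.

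All 12 probes of the 10 genes were well above background in both channels of all 3 arrays, so none of the 10 was lost to the filter on dim probes. The line for a call was 2-fold, which is 1 or -1 on the log2 scale. Egr1, Dusp2 and Arc were higher in the top fraction and in the light polysomes, and Egr1 and Dusp2 were higher in the heavy polysomes. Of all measured genes, 0.429% were higher at 2-fold in top RNA, 0.397% in light and 0.507% in heavy polysomes. None of the 10 genes was lower at 2-fold, against 0.265%, 0.291% and 0.306% of all measured genes in the top, light and heavy fractions. The median log2 ratio of the 10 genes was 0.41 in top RNA, 0.18 in light and 0.25 in heavy polysomes, beside medians of 0.00, 0.01 and -0.01 over all measured genes. Egr1, Dusp2 and Arc were chosen by ratios on these same arrays. The counts and medians of the 10 genes are thus partly set by that choice and are no result about the class. The other genes ranged from -0.11 to 0.98 in top RNA, -0.22 to 0.56 in light and -0.18 to 0.43 in heavy polysomes. Nearest to the 2-fold line were Egr1 in the light polysomes on the inside (1.21) and Junb in the top fraction on the outside (0.98).

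**Figure D1:**
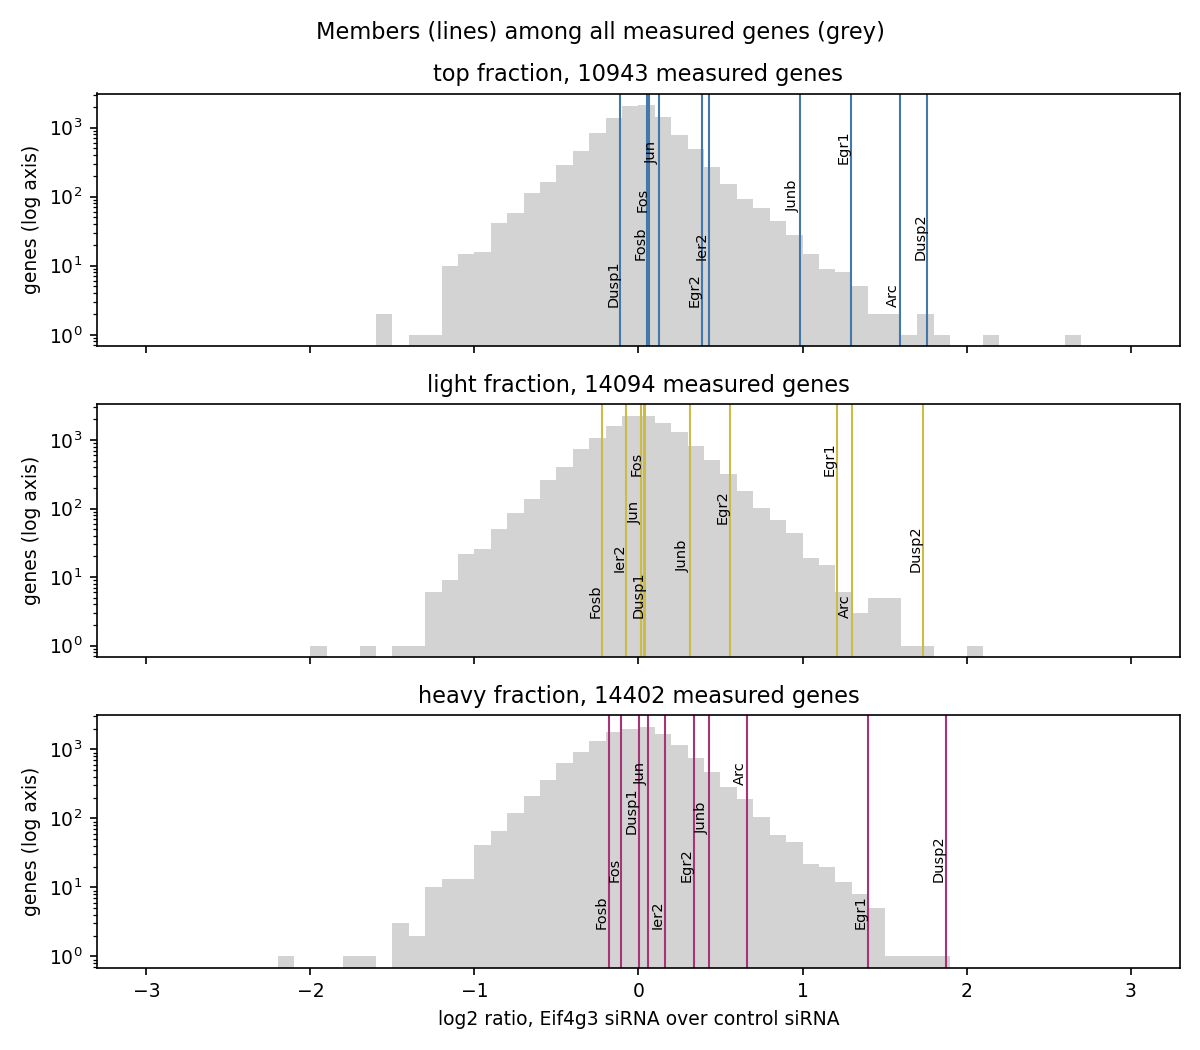
Histograms of the log2 ratio (x axis, Eif4g3 siRNA over control siRNA) for all measured genes in the top, light and heavy fractions, with the number of genes on a log axis. Vertical lines mark the 10 immediate early genes, with each name to the left of its line. Dusp2, at 1.76, 1.73 and 1.87, and Egr1, at 1.29, 1.21 and 1.40, lie in the right tail of all 3 panels, Arc nears the bulk in the heavy panel at 0.66, and Fos, Fosb, Jun and Dusp1 lie near 0.

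Promoter sequences are shown for 4 of the genes, as examples of the Egr site, the CArG box, the full cAMP response element and its core. RefSeq windows (GRCm38.p6) were found for 7 of the 10 genes, all but Egr1, Ier2 and Arc, and the 250 bases before the start were searched on both strands. Capitals mark the match. Dusp2, which was higher in every fraction, held an Egr site (GCGNGGGCG) 98 bases before its start. Egr2 held a CArG box, the element bound by serum response factor, 133 bases before the most downstream of its 5 listed starts. Dusp1 held a full cAMP response element (TGACGTCA) 143 bases before its start, and Fos held the shorter core of that element (TGACG) at 129 and 66 bases.
Dusp2, chr2:127335909-127336158, plus strand: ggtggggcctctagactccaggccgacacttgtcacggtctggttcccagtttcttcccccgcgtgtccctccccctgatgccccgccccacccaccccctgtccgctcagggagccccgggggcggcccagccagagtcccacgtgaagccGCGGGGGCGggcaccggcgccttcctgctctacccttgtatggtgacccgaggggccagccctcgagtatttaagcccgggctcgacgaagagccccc
Egr2, chr10:67537680-67537929, plus strand: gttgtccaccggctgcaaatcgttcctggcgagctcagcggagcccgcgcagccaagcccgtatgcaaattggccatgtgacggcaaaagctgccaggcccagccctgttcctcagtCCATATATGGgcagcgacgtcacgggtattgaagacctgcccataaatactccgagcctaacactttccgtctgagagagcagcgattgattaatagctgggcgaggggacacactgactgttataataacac
Dusp1, chr17:26508473-26508722, minus strand: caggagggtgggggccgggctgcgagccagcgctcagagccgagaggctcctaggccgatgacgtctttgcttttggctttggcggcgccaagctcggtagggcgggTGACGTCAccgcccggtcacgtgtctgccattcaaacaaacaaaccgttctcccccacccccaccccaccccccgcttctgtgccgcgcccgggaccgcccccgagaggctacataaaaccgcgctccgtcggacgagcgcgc
Fos, chr12:85473640-85473889, plus strand: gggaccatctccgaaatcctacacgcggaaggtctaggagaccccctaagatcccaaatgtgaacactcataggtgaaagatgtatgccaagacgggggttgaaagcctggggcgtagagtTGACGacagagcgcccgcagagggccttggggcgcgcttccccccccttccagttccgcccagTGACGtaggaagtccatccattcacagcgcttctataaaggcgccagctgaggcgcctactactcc

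Over 32851 RefSeq windows of the same length, the Egr site was found in 4.7%, the CArG box in 1.47%, the full cAMP response element in 1.55% and its core in 17.8%. Within the searched windows of the 7 genes, Dusp2 and Fosb held an Egr site and only Egr2 held a CArG box. Dusp1, Egr2, Fos, Fosb and Junb held the TGACG core, which the full element contains. The AP-1 site TGANTCA, bound by Fos and Jun dimers, was in none of the 7 and in 6.75% of all windows. The TATA box TATAAA was in Fos and in 12.4% of all windows. These are matches of letters in 1 window per start and show no binding. Bases outside the window were not searched, so a gene without a match may hold the element farther from its start.

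The Egr transcription factors are zinc finger proteins that bind GC-rich sites. Egr1 is induced by growth factors, serum and stress in most cell types. The Egr1 probe (NM_007913, chr18:34990715-34990774, plus strand, mm8 build of the mouse genome) read a signal of 863 with Eif4g3 siRNA and 352 with control siRNA in the top fraction. In the light polysomes it read 6907 with Eif4g3 siRNA and 2990.3 with control siRNA, and in the heavy polysomes 7768 with Eif4g3 siRNA and 2945 with control siRNA. The Eif4g3 siRNA channel was thus the brighter of the pair in all 3 fractions. The log2 ratio was 1.29 ± 0.25 in top RNA, 1.21 ± 0.23 in light and 1.40 ± 0.24 in heavy polysomes, which is 2.45-fold, 2.31-fold and 2.64-fold. The 3 ratios of Egr1 lay within 1 software error of each other, and the difference of heavy minus top was 0.11 ± 0.34. On the heavy array the uncorrected scanner signals were nearly equal, 4828 with Eif4g3 siRNA and 4698 with control siRNA, on an array whose median ratio before normalization was -1.52. The rise of Egr1 there is therefore relative to the other genes of the array. Egr1 held rank 16 from the highest of 10943 measured genes in top RNA, rank 22 of 14094 in light and rank 10 of 14402 in heavy polysomes.

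Egr2, the closely related factor known from myelinating Schwann cells and from lymphocytes, had 10 spots of 1 probe (NM_010118, chr10:66937367-66937426, plus strand, mm8). In the top fraction its 9 kept spots read 1344 to 1468 with Eif4g3 siRNA (median 1386), against 1037 to 1091 with control siRNA (median 1069). In the light polysomes its 10 spots read 18944 to 23583 with Eif4g3 siRNA (median 21491), against 12635 to 15902 with control siRNA (median 15057.5). In the heavy polysomes its 9 kept spots read 19959.7 to 27171.5 with Eif4g3 siRNA (median 24957), against 15967 to 21873 with control siRNA (median 19601). The spots of the 2 channels did not overlap in the top and light fractions and overlapped in the heavy, while the log2 ratio of every kept spot was above 0. The mean log2 ratio was 0.39 ± 0.04 (SD of 9 spots) in top RNA, 0.56 ± 0.06 (SD of 10 spots) in light and 0.34 ± 0.10 (SD of 9 spots) in heavy polysomes. Egr2 was therefore above 0 beyond the spread of its spots in each fraction, at 1.31-fold, 1.47-fold and 1.26-fold, short of 2-fold. The scanner software's error of these ratios was wider, at 0.21 in each fraction. Over 6 settings the light ratio of Egr2 ranged from 0.54 to 0.915. In heavy polysomes the direction rests on the normalization. The uncorrected scanner signals there were 15914 with Eif4g3 siRNA and 29911 with control siRNA. Spots of 1 array share their RNA and are not replicates of the siRNA.

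The AP-1 genes encode the Fos and Jun proteins, which pair to bind AP-1 sites. Fos had 10 spots of 1 probe (NM_010234, chr12:86366053-86366112, plus strand, mm8). Its mean signal was 73.7 with Eif4g3 siRNA and 70.5 with control siRNA in top RNA, 219 with Eif4g3 siRNA and 214 with control siRNA in light and 278 with Eif4g3 siRNA and 299 with control siRNA in heavy polysomes. In the top fraction 8 spots were kept, of which 5 were well above background with control siRNA, so Fos was near its limit of measurement there. The mean log2 ratio of the Fos spots was 0.06 ± 0.05 (SD of 8 spots) in top RNA, 0.03 ± 0.05 (SD of 10 spots) in light and -0.10 ± 0.08 (SD of 10 spots) in heavy polysomes. Of these spots, 7, 8 and 0 were above 0 in the top, light and heavy fractions, and the 2 channels overlapped in each.

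Fosb, a close relative of Fos, had 1 spot (NM_008036, chr7:18461650-18461709, minus strand, mm8). It read 80.3 with Eif4g3 siRNA and 77.3 with control siRNA in top RNA, 238 with Eif4g3 siRNA and 277 with control siRNA in light and 274 with Eif4g3 siRNA and 309.6 with control siRNA in heavy polysomes. The log2 ratio of Fosb was 0.05 ± 0.30 in top RNA, -0.22 ± 0.21 in light and -0.18 ± 0.21 in heavy polysomes. The light value alone was farther from 0 than its error, and none was near 2-fold.

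Jun, the best known partner of Fos, had 10 spots of 1 probe (NM_010591, chr4:94541191-94541250, minus strand, mm8). Its mean signal was 197 with Eif4g3 siRNA and 180.5 with control siRNA in top RNA, 859.9 with Eif4g3 siRNA and 849 with control siRNA in light and 1484 with Eif4g3 siRNA and 1426 with control siRNA in heavy polysomes. The log2 ratio of Jun was 0.13 ± 0.06 (SD of 8 spots) in top RNA, 0.02 ± 0.05 (SD of 9 spots) in light and 0.06 ± 0.08 (SD of 10 spots) in heavy polysomes. In the top fraction the spots of the 2 channels did not overlap, at 189 to 211 with Eif4g3 siRNA and 175 to 184 with control siRNA, although the difference was 1.09-fold. In the light and heavy polysomes they overlapped.

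**Figure D2:**
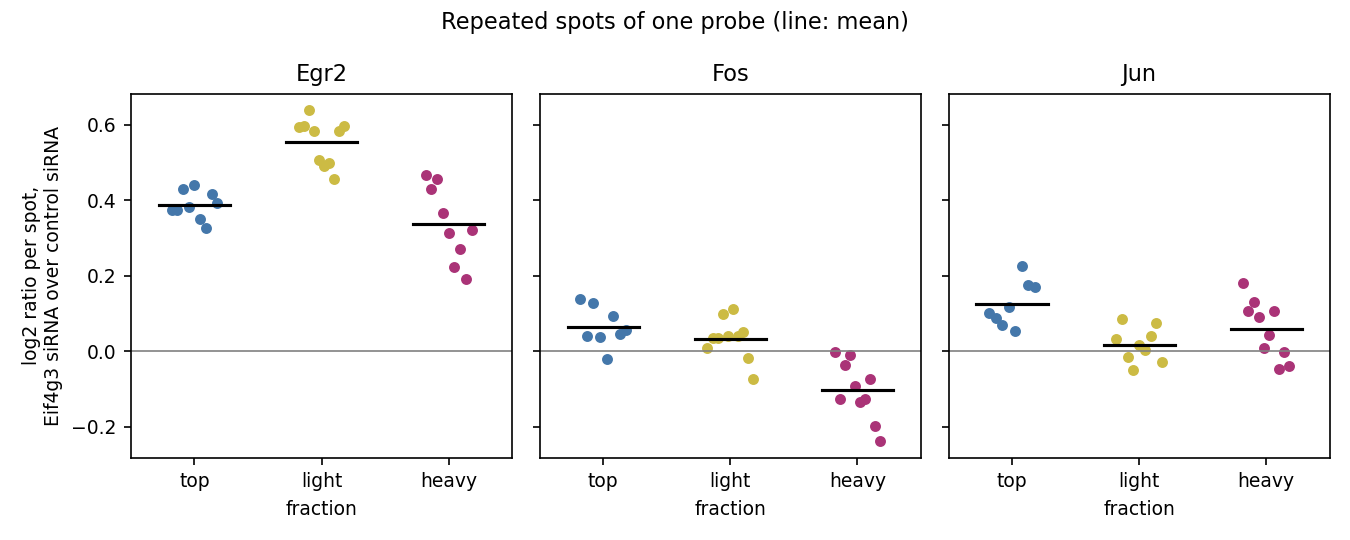
Log2 ratio (y axis, Eif4g3 siRNA over control siRNA) of each kept spot of the Egr2, Fos and Jun probes in the top, light and heavy fractions, with the mean as a line. All Egr2 spots lie above 0, from 0.19 to 0.64, while the Fos and Jun spots lie between -0.24 and 0.23.

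Junb, a Jun family member that often restrains Jun, had 2 probes on chromosome 8 (NM_008416, minus strand, mm8), at chr8:87867049-87867108 and chr8:87867087-87867146, which share 22 bases. The probe that starts at 87867049 read 12542 with Eif4g3 siRNA and 5807 with control siRNA in top RNA, 39842.5 with Eif4g3 siRNA and 29038 with control siRNA in light and 56119 with Eif4g3 siRNA and 38539.9 with control siRNA in heavy polysomes. The other read 11647 with Eif4g3 siRNA and 6433 with control siRNA in top RNA, 41681 with Eif4g3 siRNA and 37024 with control siRNA in light and 54951 with Eif4g3 siRNA and 44041 with control siRNA in heavy polysomes. Both probes were brighter with Eif4g3 siRNA in every fraction, by the widest margin in the top. In heavy polysomes this rests on the normalization, since the uncorrected scanner signals were 37207 and 36492 with Eif4g3 siRNA and 58077 and 66259 with control siRNA. Their log2 ratios were 1.11 and 0.86 in top RNA, 0.46 and 0.17 in light and 0.54 and 0.32 in heavy polysomes. For the gene, these gave 0.98 ± 0.15 in top RNA, 0.31 ± 0.15 in light and 0.43 ± 0.15 in heavy polysomes. Junb thus missed the 2-fold line in the top fraction at 1.98-fold, with 1 of its 2 probes past it. The difference of light minus top was -0.67 ± 0.21 and that of heavy minus top -0.55 ± 0.21. The size of the first depends on the setting. Over 6 settings the light ratio of Junb ranged from 0.25 to 0.73, beside 0.85 to 0.98 in top RNA.

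Ier2 encodes a small nuclear protein induced by growth factors. It also had 2 probes on the minus strand of chromosome 8 (mm8), at chr8:87549656-87549690 and chr8:87549829-87549887, about 317 kb from those of Junb. The bright Ier2 probe, which starts at 87549656, read 1664 with Eif4g3 siRNA and 991 with control siRNA in top RNA, 4001 with Eif4g3 siRNA and 4927 with control siRNA in light and 4457 with Eif4g3 siRNA and 4483 with control siRNA in heavy polysomes. Its log2 ratio was 0.75 ± 0.22 in top RNA, -0.30 ± 0.21 in light and -0.01 ± 0.20 in heavy polysomes. The dim Ier2 probe read 115 with Eif4g3 siRNA and 107 with control siRNA in top RNA, 113 with Eif4g3 siRNA and 102 with control siRNA in light and 168 with Eif4g3 siRNA and 134 with control siRNA in heavy polysomes. Its log2 ratios of 0.11, 0.15 and 0.33 ± 0.22 in the top, light and heavy fractions did not follow those of the bright probe. The mean over both, 0.43 ± 0.15, -0.07 ± 0.16 and 0.16 ± 0.15, rests on probes that disagree, most of all in the top fraction. No value of Ier2 reached 2-fold.

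Dusp1 and Dusp2 encode dual-specificity phosphatases that remove the activating phosphates of MAP kinases. Dusp1 acts mainly on p38 and JNK and is induced by stress and glucocorticoids. Its probe (NM_013642, chr17:26233451-26233508, minus strand, mm8) read 255 with Eif4g3 siRNA and 276 with control siRNA in top RNA, 3009 with Eif4g3 siRNA and 2923 with control siRNA in light and 3681 with Eif4g3 siRNA and 3675 with control siRNA in heavy polysomes. The log2 ratio of Dusp1 was -0.11 ± 0.20 in top RNA, 0.04 ± 0.20 in light and 0.00 ± 0.20 in heavy polysomes, each within its error of 0.

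Dusp2 is a nuclear phosphatase first described in activated lymphocytes. Its probe (NM_010090, chr2:127029635-127029694, plus strand, mm8) read 388 with Eif4g3 siRNA and 115 with control siRNA in the top fraction. In the light polysomes it read 2049.6 with Eif4g3 siRNA and 617 with control siRNA, and in the heavy polysomes 1606 with Eif4g3 siRNA and 438 with control siRNA. The log2 ratio was 1.76 ± 0.32 in top RNA, 1.73 ± 0.27 in light and 1.87 ± 0.28 in heavy polysomes, which is 3.39-fold, 3.32-fold and 3.67-fold. Dusp2 held rank 5 from the highest in top RNA, rank 2 in light and rank 1 of 14402 genes in heavy polysomes. In the main setting the 3 ratios lay within their errors, as with Egr1, and the difference of heavy minus top was 0.11 ± 0.42. With the scanner software's own ratio, to which these errors belong, that difference was -0.45, which is beyond the error. In the authors' deposited table, made with the scanner software, the log2 ratios of Dusp2 were 2.57 in top RNA, 1.89 in light and 2.12 in heavy polysomes, and those of Dusp1 were -0.17, -0.01 and -0.07. Of the 9 leukocyte markers none was well above background in the top fraction with either siRNA, while 3 with Eif4g3 siRNA and 3 with control siRNA were in the light polysomes, and 3 with Eif4g3 siRNA and 4 with control siRNA in the heavy. Their part in the result was not tested.

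Arc encodes a cytoskeleton-associated protein best known from neurons, where it takes part in the removal of glutamate receptors from synapses. Its probe (NM_018790, chr15:74496422-74496481, minus strand, mm8) read 1032 with Eif4g3 siRNA and 342 with control siRNA in the top fraction. In the light polysomes it read 12379 with Eif4g3 siRNA and 5022 with control siRNA, and in the heavy polysomes 15935 with Eif4g3 siRNA and 10091 with control siRNA. The Eif4g3 siRNA channel was brighter in each fraction, by a smaller margin in the heavy than in the others. Before normalization the control channel was the brighter in heavy polysomes, with scanner signals of 10171 with Eif4g3 siRNA and 15759.8 with control siRNA, so the direction there is relative to the other genes of the array. The log2 ratio was 1.59 ± 0.26 (3.02-fold) in top RNA, 1.30 ± 0.24 (2.46-fold) in light and 0.66 ± 0.22 (1.58-fold) in heavy polysomes. The difference of heavy minus top was -0.93 ± 0.34, at percentile 1.05 of 10721 genes measured on both arrays and short of 2-fold. It passed 2-fold with an offset of 0 (-1.096), with the scanner software's ratio (-1.03) and without loess (-1.04). The neuronal markers Snap25, Syt1 and Nefl were not well above background with Eif4g3 siRNA or control siRNA in any fraction. Of 7 neuronal markers on the array, 1, 3 and 2 were detected with Eif4g3 siRNA in the top, light and heavy fractions, against 1, 4 and 4 with control siRNA. Tubb3 was detected with both siRNAs in every fraction, at log2 ratios of 0.17, 0.44 and 0.28. Camk2a was measured in light (-0.11) and heavy polysomes (0.09) only. Among those measured with both siRNAs, 1 of 1, 1 of 3 and 2 of 2 were above 0.

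**Figure D3:**
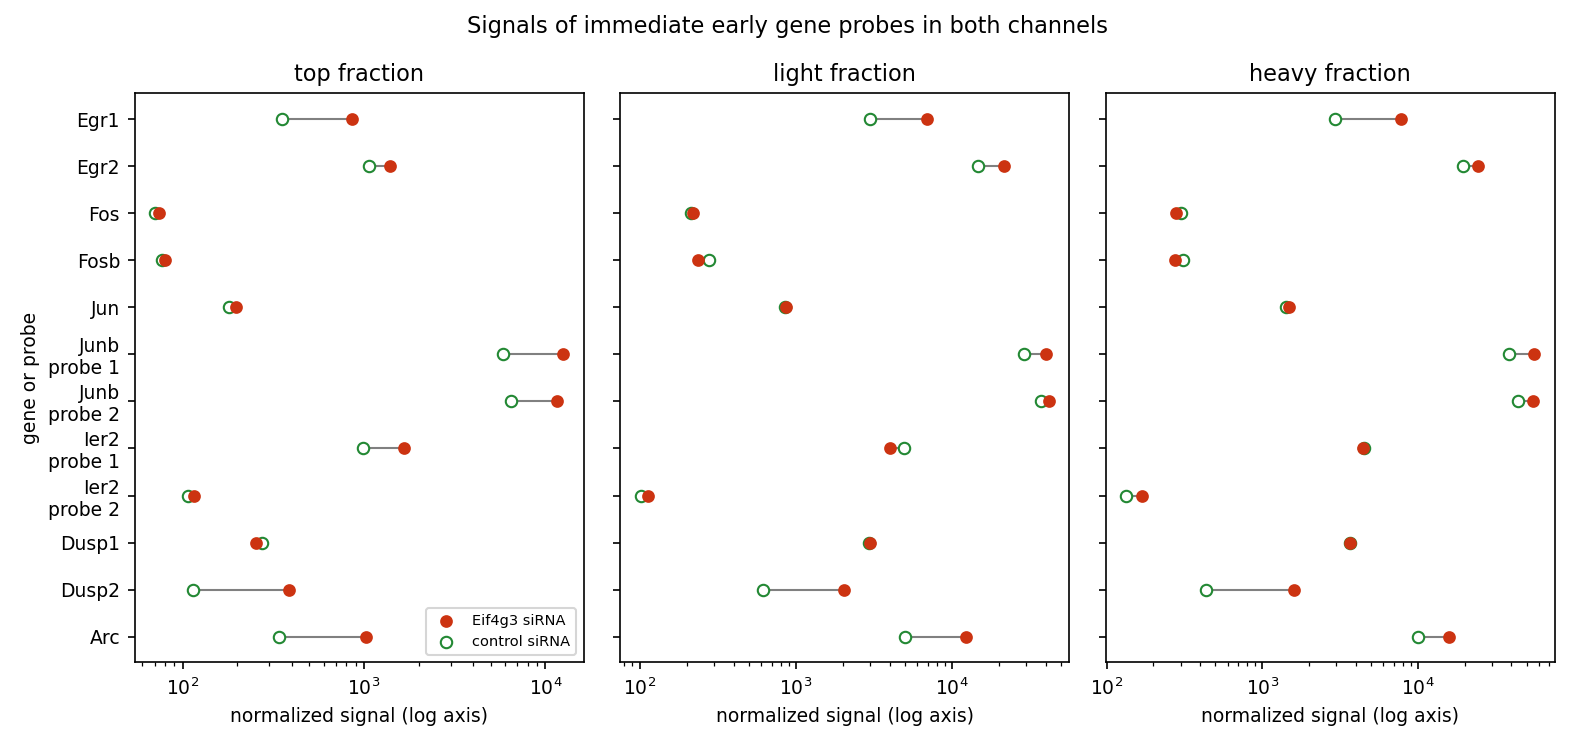
Normalized signal (x axis, log scale) of each of the 12 probes in the top, light and heavy fractions, with Eif4g3 siRNA as filled red points and control siRNA as open green points. The gaps of Egr1 and Dusp2 are wide in all 3 panels, that of Arc narrows in heavy polysomes (15935 with Eif4g3 siRNA and 10091 with control siRNA), and the points of Fos, Jun and Dusp1 nearly coincide. Signals of different probes or panels are not on a common scale.

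**Figure D4:**
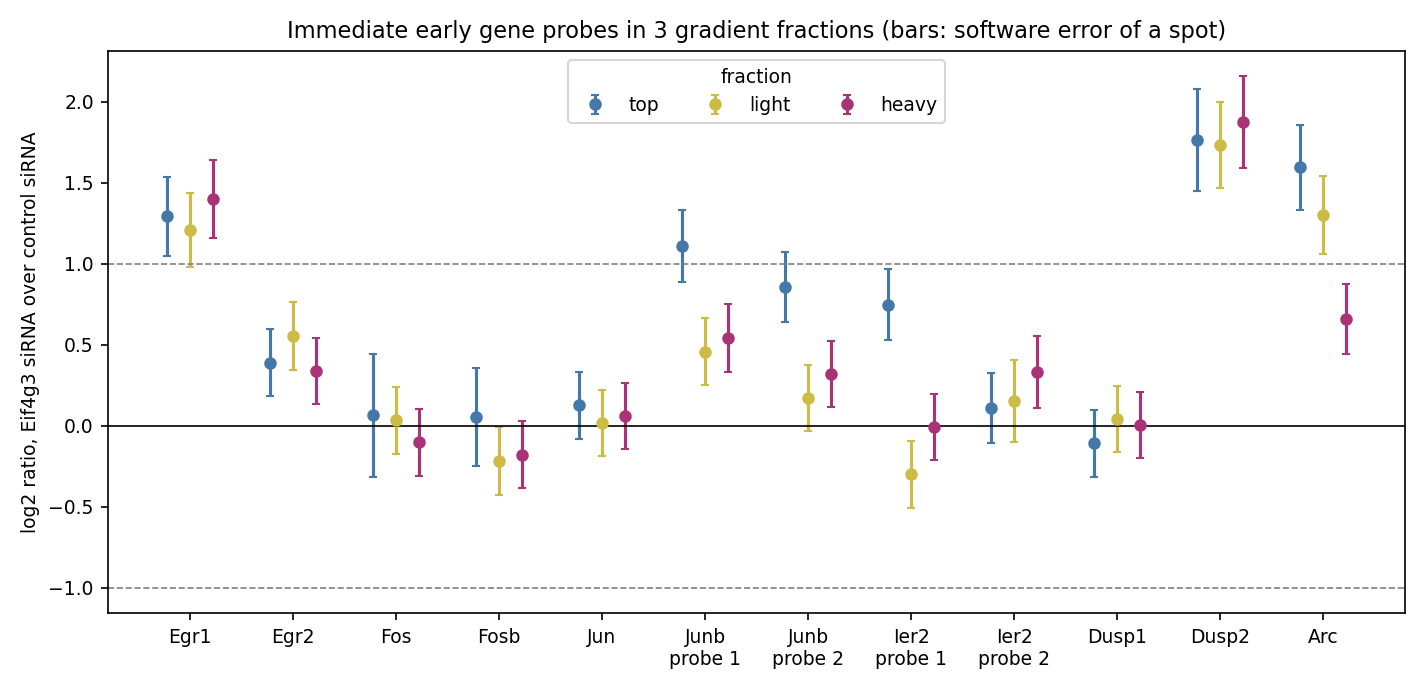
Log2 ratio (y axis, Eif4g3 siRNA over control siRNA) of each of the 12 probes in the top, light and heavy fractions, with bars for the scanner software's error of a spot and dashed lines at 2-fold. Egr1 (1.29, 1.21 and 1.40) and Dusp2 (1.76, 1.73 and 1.87) are past 2-fold in all fractions, Arc (1.59, 1.30 and 0.66) and both Junb probes are highest in top RNA, and the 2 Ier2 probes differ. With the software's ratio Dusp2 was 2.57 in top RNA, against 1.89 in light and 2.12 in heavy polysomes.

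None of the 10 genes differed between fractions by 2-fold. For heavy minus top, 0.811% of all genes were higher and 0.7% lower at 2-fold, and the 10 genes had a median of -0.12, with 3 above 0 and a range from -0.93 for Arc to 0.11 for Dusp1 and Dusp2. For light minus top, 0.318% of all genes were higher and 0.739% lower, and the 10 genes ranged from -0.67 for Junb to 0.17 for Egr2, with 2 above 0. For heavy minus light, 0.102% of all genes were higher and 0.628% lower, and the 10 genes ranged from -0.64 for Arc to 0.24 for Ier2, with 6 above 0. Over all genes, 49.9% were above 0 for heavy minus top, 50.5% for light minus top and 47.1% for heavy minus light. In the main setting Arc and Junb had their highest ratios in the top fraction, whereas the ratios of Egr1 and Dusp2 in the 3 fractions lay within their errors. For Dusp2 the sign of heavy minus top depended on the setting (0.11, but -0.35 with an offset of 0, -0.45 with the software's ratio and -0.07 without loess), and for Egr1 it ranged from -0.11 to 0.11. These differences share arrays, so they are not independent of each other.

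The place of each mRNA in the gradient was read as the log2 signal in the heavy over the top fraction within a channel, relative to the spread of signals on each array. It does not give the amount of RNA in a fraction. For each gene, the gap between its positions with the 2 siRNAs restates the difference of heavy minus top given above. That gap is no separate result. Among the 10 genes, Arc lay farthest towards heavy polysomes in control cells and Ier2 farthest towards the top. The position of Arc was 0.45 with Eif4g3 siRNA and 1.38 with control siRNA, or percentiles 68.9 and 91.8 of 10721 genes. Egr2 also lay towards heavy polysomes, at 0.80 with Eif4g3 siRNA and 0.85 with control siRNA. Dusp2 lay towards the top in both, at -1.35 with Eif4g3 siRNA and -1.46 with control siRNA, or percentiles 12 and 11.1. Egr1 lay on the same side, at -0.43 with Eif4g3 siRNA and -0.54 with control siRNA, and Jun at -0.57 with Eif4g3 siRNA and -0.50 with control siRNA. Thus the genes that were higher by 2-fold in the top fraction, Egr1, Dusp2 and Arc, did not share a place in the gradient of control cells.

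Ier2 stood at -1.96 with Eif4g3 siRNA and -1.70 with control siRNA. Its bright probe gave -2.05 with Eif4g3 siRNA and -1.29 with control siRNA, and its dim probe -1.88 with Eif4g3 siRNA and -2.10 with control siRNA, so both place it towards the top but differ in which siRNA is the lower. Junb was at -0.17 with Eif4g3 siRNA and 0.38 with control siRNA. Fos was at -0.03 with Eif4g3 siRNA and 0.14 with control siRNA, Dusp1 at 0.23 with Eif4g3 siRNA and 0.12 with control siRNA, and Fosb at -0.45 with Eif4g3 siRNA and -0.21 with control siRNA. The signs of Junb and Fos depend on the scaling. With median scaling of each channel the position in control cells was -0.67 for Junb and -1.35 for Fos. Under both scalings, Arc, Egr2 and Dusp1 lay towards heavy polysomes and Dusp2, Ier2, Jun, Egr1 and Fosb towards the top with both siRNAs.

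**Figure D5:**
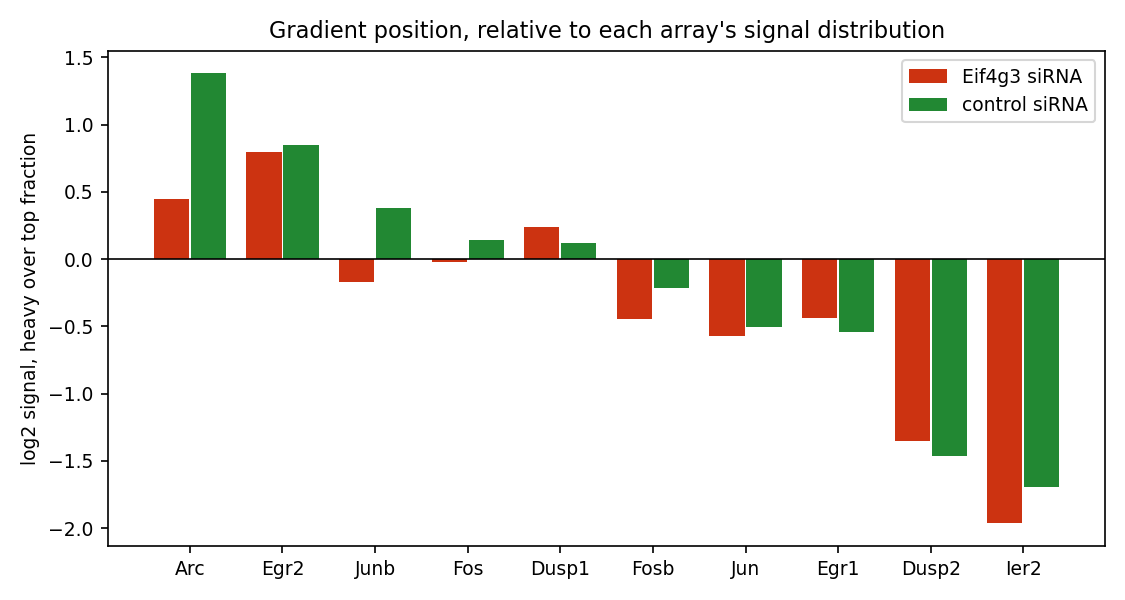
Position in the gradient, as log2 signal in the heavy over the top fraction (y axis) relative to each array's signals, for each gene with Eif4g3 siRNA (red) and control siRNA (green). Arc is at 0.45 with Eif4g3 siRNA and 1.38 with control siRNA, while Dusp2 and Ier2 are below -1 with both. With median scaling the control bars of Junb and Fos turn to -0.67 and -1.35. There is 1 array per fraction, so bars have no error.

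The genes whose 3 log2 ratios lay nearest to those of Egr1 and Dusp2 were looked up among 7366 genes with a current symbol measured on all 3 arrays, by Euclidean distance over the 3 fractions. Nearest to Egr1 were Oas1f (distance 0.48), a member of the oligoadenylate synthetase family, and Ube2q2 (0.49), a ubiquitin-conjugating enzyme. Next came Anxa8 (0.51), an annexin, Fhl1 (0.52), a LIM domain protein, and Fbn1 (0.53), the microfibril protein fibrillin. Oas1f had log2 ratios of 0.86, 1.03 and 1.29 in the top, light and heavy fractions, and Ube2q2 had 1.097, 0.83 and 1.15 over 4 probes. Nearest to Dusp2 was Egr1, at a distance of 0.85. It was followed by Fbn1 (1.09), Fhl1 (1.16), the interferon-induced Rtp4 (1.18) and the 14-3-3 gene Ywhah (1.20). Egr1 and Dusp2 were chosen for high ratios in all 3 fractions, and the distance uses the same ratios. Their nearness was thus partly set by that choice and is no result of its own. On all 3 arrays only Egr1, Dusp2 and the clone name 5031425E22Rik were higher at 2-fold, of 10657 genes measured on all, and Bcap29 and Spp1 were lower. Those last 3 names were picked out after their values were seen.

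Of 9 relatives (Egr3, Egr4, Fosl1, Fosl2, Jund1, Ier3, Ier5, Ier5l and Dusp4), 0 were past 2-fold in top RNA, 1 in light and 0 in heavy polysomes, with medians of 0.14, 0.05 and 0.01. At 2-fold, 0.429%, 0.397% and 0.507% of all measured genes were higher in the top, light and heavy fractions. The relative past 2-fold was Egr4, an Egr factor known from neurons. It read 192 with Eif4g3 siRNA and 135 with control siRNA in top RNA, 2792 with Eif4g3 siRNA and 1348 with control siRNA in light and 4191 with Eif4g3 siRNA and 2329.7 with control siRNA in heavy polysomes. Its log2 ratio was 0.51 ± 0.22 in top RNA, 1.05 ± 0.23 in light and 0.85 ± 0.22 in heavy polysomes. The lower value in top RNA depends on the setting, since the scanner software's ratio was 0.86 there, 1.06 in light and 0.84 in heavy polysomes. Egr3, which also belongs to the family, had 0.14 ± 0.36, 0.28 ± 0.21 and 0.22 ± 0.17. Dusp4, a nuclear phosphatase of the same subfamily as Dusp2, had 0.59 ± 0.15 and 0.60 ± 0.15 in the top and light fractions and 0.01 ± 0.15 in the heavy. Fosl1, a Fos relative, had 0.31 ± 0.21 in top RNA, 0.65 ± 0.21 in light and -0.08 ± 0.20 in heavy polysomes. Ier3, a survival gene, was the lowest of the 9 in heavy polysomes, at -0.17 ± 0.20. Egr3, Dusp4 and Fosl1 were picked out after their values were seen.

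In the wider set of immediate early transcription factors, which includes most of these relatives, Egr4 was the only one of 25, 26 and 26 measured members (of 28 on the array) past 2-fold. Their medians were 0.15 in top RNA, 0.02 in light and 0.05 in heavy polysomes, and 17, 14 and 16 were above 0. Over all measured genes, 50.4%, 52.6% and 48.3% were above 0 in the same fractions. The lowest in the heavy polysomes was the clock gene Per1, at -0.59 ± 0.21. Among 38 other primary response genes, which encode secreted and signalling proteins, 32, 38 and 37 were measured and none was higher at 2-fold. The 2 that fell were the chemokine genes Ccl2 and Ccl7, which were past 2-fold in the top fraction and in no other. Among all measured genes, 0.265% were lower and 0.429% higher at 2-fold in the top fraction. Ccl2 read 869 with Eif4g3 siRNA and 1989 with control siRNA there, a log2 ratio of -1.19 ± 0.23, beside -0.18 ± 0.20 in light and -0.15 ± 0.20 in the heavy polysomes. Ccl7 had -1.12 ± 0.16 in top RNA, -0.69 ± 0.15 in light and -0.22 ± 0.14 in heavy polysomes. The medians of the primary response list were 0.04, -0.06 and -0.06, and its ends in the heavy polysomes were Errfi1, a feedback inhibitor of the EGF receptor, at -0.77 ± 0.21 and Gadd45g, a stress gene, at 0.45 ± 0.21.

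The genes that act on immediate early transcription or on the decay of its mRNAs were not past 2-fold in any fraction in the main setting. Among all measured genes, 0.429%, 0.397% and 0.507% were higher at 2-fold in the top, light and heavy fractions. The shares that were lower were 0.265%, 0.291% and 0.306%. In lists of this size an absence lies near those shares and is no result about these genes. Of 30 genes of the ERK, p38 and JNK cascades and their promoter-bound factors, 23, 27 and 28 were measured, with medians of -0.01, 0.04 and -0.02. Their ends in the heavy polysomes were Map2k1, the kinase that activates ERK, at -0.64 ± 0.21 and Hras1, the Ras GTPase upstream of it, at 0.66 ± 0.21. Of 17 other MAP kinase phosphatases and feedback inhibitors, 16, 17 and 17 were measured, with medians of 0.07, -0.04 and 0.07. Dusp9, a phosphatase of the cytoplasm, was lowest in the heavy polysomes at -0.58 ± 0.15, and Nab1, a co-repressor of Egr proteins, was highest at 0.63 ± 0.15. Of 11 genes for proteins that bind AU-rich and related elements, 10, 11 and 11 were measured, with medians of 0.02, 0.00 and -0.01. Elavl1, which stabilizes such mRNAs, was lowest in the heavy polysomes at -0.40 ± 0.12, and Tia1, which represses their translation, was highest at 0.76 ± 0.13. Map2k6, a kinase that activates p38, had the value farthest from 0 in the cascade list, -0.86 ± 0.23 in light polysomes, and passed 2-fold there with an offset of 0 (-1.05) and with the scanner software's ratio (-1.14). With the software's ratio Spred2, an inhibitor of the ERK cascade, passed 2-fold in top RNA (-1.06), and so did the cytokine gene Il6 of the primary response list (-1.002). Map2k6, Spred2 and Il6 were picked out after their values were seen. With the same ratio Tia1 passed 2-fold, at 1.003 in light and 1.13 in the heavy polysomes.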

How the data were processed

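Each array held Eif4g3 siRNA RNA and control siRNA RNA of 1 fraction, in 1 comparison per fraction. The scanner files deposited by the authors give the linear intensity of every spot in both channels, and were written by Agilent Feature Extraction 10.5.1.1, as their headers state. Per the file headers, a log10 ratio from the software and an error score of it stand beside each intensity. In the value table that the authors deposited stand log2 ratios, equal to the software's ratios for measured probes of a single spot (largest difference 3.5e-06), with column medians of -0.09, -0.01 and 0.22 in the top, light and heavy fractions. Any further centring of it is not stated in the labels. Probe coordinates are those of the files (mm8).

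Ratios were computed with limma 3.58.1 in R 4.3.3, by normexp on mean signals and median local backgrounds with an offset of 50 and loess that gave control spots no weight. This offset draws dim ratios towards 0. Their slope on the software's ratios was 0.57 for top RNA and 0.72 for either polysome array, and the errors were not rescaled. Outlier spots (220, 170 and 183) were left out. Spots of a probe were averaged. A probe counted as measured when over 0.5 of its kept spots were well above background in both channels, and a gene is the mean of its measured probes. Gradient positions used Aquantile between arrays. With 1 array per fraction, precision is limited by the number of arrays and no test was run. Background correction and loess alone were tried on simulated arrays with planted changes. The filter on dim probes, the averaging of probes and the gradient positions were not simulated. The 10 genes, the other lists and the 2-fold call were chosen with earlier results of these data known. Named were all 10 genes, list genes past 2-fold on an array, each list's highest and lowest gene in the heavy polysomes, the 5 genes nearest to Egr1 and to Dusp2, and Eif4g3. Some marker lists are given by counts alone, and for some the genes detected in no fraction are named. Names outside these rules are marked as such.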

Additional observations from a re-analysis of the deposited data

Results flagged for a closer look

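The bright Ier2 probe moved in opposite directions in 2 fractions, each beyond its software error. Its log2 ratio was 0.75 ± 0.22 in the top fraction, where it read 1664 with Eif4g3 siRNA and 991 with control siRNA, and -0.30 ± 0.21 in the light polysomes, where it read 4001 with Eif4g3 siRNA and 4927 with control siRNA. The dim Ier2 probe had 0.11 and 0.15 in the same fractions. The difference between the fractions was not tested, since each is 1 array.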

How the results depend on the processing

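No paired analysis was possible because each fraction has 1 array and no result comes from a test, and for the same reason no replicate could be left out. The counts of the 10 genes past 2-fold, 3 in top RNA, 3 in light and 2 in heavy polysomes, were equal under all 5 alternatives, and all 30 values of the 10 genes in the 3 fractions kept their side of 2-fold. Of those 30 values, 24 kept their sign, and the others lay near 0. Egr1 ranged from 1.29 to 1.48 in top RNA, 1.18 to 1.46 in light and 1.22 to 1.44 in heavy polysomes, and Dusp2 from 1.76 to 2.57, 1.73 to 1.89 and 1.70 to 2.12. Under heavy minus top, 0 of the 10 passed 2-fold, but 1, Arc, did with an offset of 0, with the software's ratio and without loess. Over all genes, the main setting called 76, 97 and 117 genes in the top, light and heavy fractions and 162 for heavy minus top. With an offset of 0 it was 191, 194, 225 and 337, and with the software's ratio 297, 304, 355 and 456. Without loess it was 180 in the light, 335 in the heavy and 268 for heavy minus top. The share of calls that were higher moved with the software's ratio to 50.8% in the top and 66% for heavy minus top, and without loess to 82.8% in light and 38.8% for heavy minus top. In light polysomes it was 48.7% with the software's ratio and 48.5% with an offset of 0, and in the heavy 71% with the software's ratio. In the main setting it was 62.4% in the heavy, 61.8% in top RNA, 57.7% in light and 53.7% for heavy minus top. Of 40 gradient positions, 34 kept their sign under median scaling, and the largest shift was 1.49. The causes were not tested. The top array, with the fewest measured probes (34.8%), had software errors of 0.38 for Fos, 0.30 for Fosb and 0.32 for Dusp2.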
